A study of Mus musculus with 6 samples.

Results

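The genes described here are the insulin-like growth factor (IGF) ligands, the receptor that clears one of them, and the IGF-binding proteins, measured by RNA sequencing of mouse glomerular endothelial cells. They were chosen by gene symbol: Igf1, Igf2, Igf2r, Igfbp2, Igfbp3, Igfbp4, Igfbp5, Igfbp6 and Igfbp7. Of these 9 symbols, 7 were among the 12911 genes in every deposited table. Igf1 and Igfbp6 had no row there, so their levels were not analysed here. Both groups were eNOS-null, that is, mice without a functional gene for endothelial nitric oxide synthase. The 3 STZ libraries came from mice given streptozotocin, a toxin of pancreatic beta cells used to make mice diabetic, and the 3 control libraries from untreated mice of the same genotype. Each library held RNA pooled from 4 mice, so n = 3 counts pools, and the errors and p-values say nothing of the spread between single mice. Cells were freed from bead-isolated glomeruli and sorted on EYFP. The labels used here give neither the promoter that drives EYFP nor strain, age, sex or time after STZ.

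IGF1 and IGF2 are peptide growth factors that act mainly through the IGF1 receptor, a tyrosine kinase related to the insulin receptor. IGFBP1 to IGFBP6 bind them with high affinity, carry them in blood and matrix, and can either hold them back from the receptor or release them after cleavage by proteases. IGFBP7 binds IGFs weakly and is a secreted protein of blood vessel walls, and IGF2R binds IGF2 and takes it to lysosomes together with enzymes that carry mannose 6-phosphate.

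Total deposited counts were 10734376 to 12662371.5 in STZ pools and 4387339 to 8751732.5 in control pools, so every STZ library was the deeper one. The 12 listed markers of glomerular endothelium summed to 19782 to 21061 CPM (counts scaled to the normalised library size, the usual CPM of edgeR) in STZ and 14152 to 15269.6 CPM in control. Podocyte markers summed to 5144 to 6343 CPM in STZ and 4825 to 7652 CPM in control, so the sorted cells also carried RNA of that type, although Podxl, one of its markers, is made by endothelium too. Nos3, the gene named by the genotype, still had 676 ± 68.3 CPM in STZ and 840.4 ± 80.5 CPM in control (SD, n = 3 each), and a count per gene does not show which allele the RNA came from. Xist, the RNA of the inactive X chromosome of female cells, had 4 to 10 counts in STZ libraries and 3378 to 6276 in control libraries. Ddx3y, a gene of the Y chromosome, went the other way, with 1353 to 1717 counts in STZ libraries and 12 to 29 in control libraries. By Xist and Ddx3y, STZ pools were male and control pools female. The labels give no sex, and treatment and this difference of sex cannot be told apart in any comparison below.

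The 2 IGF-binding protein genes with the highest levels, Igfbp5 and Igfbp7, fell in STZ. They stood at about 0.659-fold and 0.531-fold of control, while Igfbp3 was 1.39-fold higher without passing the threshold and Igf2, Igf2r and Igfbp4 did not pass, with pools that overlapped between the groups. Of 12786 genes tested with edgeR's quasi-likelihood test, 552 (4.32%) were called lower and 699 (5.47%) higher at a Benjamini-Hochberg adjusted p of 0.05. Among the 6 members that passed the filter on low counts, 2 passed as lower, 0 passed as higher and 4 stayed short of the threshold. At an unadjusted p under 0.05 in edgeR, 1 member was higher, Igfbp3, which was called by DESeq2 and not by limma-voom. The groups did not overlap in 3 of the 6 tested members, against 29.1% of all tested genes (13.7% with STZ lower, as for Igfbp5 and Igfbp7, and 15.4% with STZ higher, as for Igfbp3). The median log2 fold change was -0.14 over those 6 and -0.01 over all tested genes. In bulk RNA, fewer cells of a type and less RNA per cell cannot be told apart.

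The promoter stretches of the binding proteins with the largest differences are given here because Igfbp5 and Igfbp7 moved together and Igfbp3 pointed the other way. Each is the 250 bases before the transcription start in RefSeq (GRCm38.p6), read 5′ to 3′ on the gene's strand, with motif matches in capitals.
Igfbp5, chr1:72874866-72875115, minus strand: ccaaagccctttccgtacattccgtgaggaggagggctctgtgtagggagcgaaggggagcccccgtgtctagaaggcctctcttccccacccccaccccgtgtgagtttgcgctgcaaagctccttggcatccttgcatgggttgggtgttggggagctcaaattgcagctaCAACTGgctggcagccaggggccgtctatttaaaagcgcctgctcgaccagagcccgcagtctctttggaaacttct
Igfbp7, chr5:77408046-77408295, minus strand: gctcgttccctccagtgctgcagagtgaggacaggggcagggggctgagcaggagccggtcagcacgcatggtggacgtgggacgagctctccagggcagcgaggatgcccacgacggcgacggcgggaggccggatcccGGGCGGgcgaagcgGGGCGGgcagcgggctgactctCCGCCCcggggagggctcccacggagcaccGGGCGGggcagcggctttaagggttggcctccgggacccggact
Igfbp3, chr11:7213924-7214173, minus strand: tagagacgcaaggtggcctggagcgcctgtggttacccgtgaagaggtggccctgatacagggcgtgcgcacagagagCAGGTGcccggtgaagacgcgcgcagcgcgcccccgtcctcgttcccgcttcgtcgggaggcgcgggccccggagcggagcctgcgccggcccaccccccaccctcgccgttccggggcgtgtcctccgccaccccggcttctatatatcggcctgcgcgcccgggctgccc

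All 3 stretches end at the start that the deposited annotation lists. They were searched on both strands for the core promoter motif TATAAA, the motif CCAAT of NF-Y, the GC box GGGCGG, the E-box CANNTG, the AP-1 site TGANTCA, the FoxO core TGTTTAC and the glucocorticoid receptor half-site TGTTCT. Igfbp7 held 4 GC boxes, and neither of the others held one. GC boxes occurred in 32.7% of 32851 RefSeq promoter stretches of the same length. Igfbp5 had 1 E-box, at position -77 from the start, and Igfbp3 had 1, at -172, while 66.2% of all stretches held one. None of the 3 held the FoxO core (3.17% of all stretches), the AP-1 site (6.75%), the glucocorticoid half-site (16.1%), the core promoter motif (12.4%) or the NF-Y motif (33.8%) in these letters. G and C made up 58.8% of the Igfbp5 stretch, 74.0% of that of Igfbp7 and 73.2% of that of Igfbp3, against a median of 52.4% over all stretches. The 2 genes that fell shared no searched motif in this window.

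The ligand gene Igf2 encodes a growth factor of fetal and placental growth and is imprinted, with expression from the paternal copy. Igf2 (NM_001122737; mm10 chromosome 7, 142650768 to 142657481, minus strand) had 22.2, 21.6 and 25.4 CPM in STZ pools 1, 2 and 3, against 25.3, 27.9 and 21.9 CPM in control pools 1, 2 and 3. The groups overlapped. On the log2 scale, STZ differed from control by -0.12 ± 0.14 (SE), with a 95% interval of -0.41 to 0.17 and an adjusted p of 0.640 by edgeR. The gene overlaps Igf2os on the opposite strand over 7124 bases in GENCODE M21, and since the strand setting of the counting is not known, reads of the 2 cannot be told apart. It also shares 16048 bases with Gm49394, a protein-coding entry on the same strand, where no strand setting would separate the reads.

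Igf2r encodes the receptor that removes IGF2 from outside the cell and sorts lysosomal enzymes. Igf2r (NM_010515; mm10 chromosome 17, 12682406 to 12769706, minus strand) had 82.0, 69.3 and 83.0 CPM in STZ pools and 77.8, 84.3 and 99.9 CPM in control pools. These ranges overlapped as well. Its log2 fold change was -0.16 ± 0.11 (SE; 95% interval -0.39 to 0.08, adjusted p = 0.433 by edgeR). Airn, the antisense RNA that silences the paternal Igf2r copy in mice, overlaps it over 28354 bases, with the same limit on strand.

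Igfbp5 encodes a binding protein that attaches to extracellular matrix and is cut by the pappalysin proteases. Igfbp5 (NM_010518; mm10 chromosome 1, 72858065 to 72874865, minus strand) took up 0.188% to 0.206% of all counts in STZ libraries and 0.270% to 0.362% in control libraries. It had 2137, 1967 and 1998 CPM in STZ pools, against 3139, 3503 and 2620.1 CPM in control pools. Every STZ pool lay below every control pool, and the STZ pools stood close together, with a coefficient of variation of 4.45% against 14.4% in control. The log2 fold change was -0.60 ± 0.12 (SE; 95% interval -0.85 to -0.35, adjusted p = 0.00477 by edgeR). The call was kept in all 6 fits that left out 1 library, where the log2 fold change ran from -0.70 to -0.50 and the adjusted p from 0.000302 to 0.0329.

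Igfbp7, also called angiomodulin, encodes a protein secreted by vascular endothelium, and human IGFBP7 in urine is used as a marker of acute kidney injury. Igfbp7 (NM_008048; mm10 chromosome 5, 77349240 to 77408045, minus strand) had 530.3, 493 and 558 CPM in STZ pools, against 715, 1350.4 and 915 CPM in control pools. The groups did not overlap, but control pool 2 stood 1.89 times above control pool 1, and the coefficient of variation was 6.25% in STZ and 32.7% in control. The log2 fold change was -0.91 ± 0.22 (SE; 95% interval -1.43 to -0.40, adjusted p = 0.0444 by edgeR). This call sat near the threshold. It was lost without STZ pool 1 (adjusted p = 0.168), STZ pool 2 (0.128), STZ pool 3 (0.0903) or control pool 3 (0.148), and kept without control pool 1 (-1.10, adjusted p = 0.00292) or control pool 2 (-0.63, adjusted p = 0.00782). It was also lost when all libraries were thinned to the smallest one (-0.92, adjusted p = 0.0572). In all, 11 of 18 alternative fits called Igfbp7 lower, among them DESeq2 (adjusted p = 2.76e-06) and limma-voom (adjusted p = 0.0134). The deposited count summarises 2 transcripts in a way that the files do not state, and in GENCODE M21 the gene overlaps Gm34648, an antisense RNA, over 7085 bases and Polr2b over 85 bases, both on the opposite strand, so reads of these cannot be told apart either.

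Igfbp3 encodes the main carrier of IGFs in blood. Igfbp3 (NM_008343; mm10 chromosome 11, 7206091 to 7213923, minus strand) had 74.0, 63.6 and 60.7 CPM in STZ pools, against 38.6, 60.4 and 44.4 CPM in control pools. The lowest STZ pool lay just above control pool 2, which stood apart from the other 2 control pools. The log2 fold change was 0.47 ± 0.15 (SE; 95% interval 0.13 to 0.81, adjusted p = 0.0832 by edgeR), so it did not pass. DESeq2 called it higher (adjusted p = 0.0435), as did edgeR without control pool 2 (0.68, adjusted p = 0.00630). In the other 16 alternative fits it was not called, with an adjusted p of up to 0.471.

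Igfbp4 encodes a binding protein that restrains IGF action until the protease PAPP-A cuts it. Igfbp4 (NM_010517; mm10 chromosome 11, 99041260 to 99052643, plus strand) had 191, 141 and 194 CPM in STZ pools, against 176, 213 and 184 CPM in control pools. The groups overlapped, and STZ pool 2 was the lowest of the 6 pools. Its log2 fold change was -0.12 ± 0.13 (SE; 95% interval -0.39 to 0.15, adjusted p = 0.609 by edgeR).

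Igfbp2 encodes a binding protein with an integrin-binding motif. Igfbp2 (NM_008342; mm10 chromosome 1, 72824480 to 72852471, plus strand) had only 6, 8 and 3 counts in STZ pools and 1, 10 and 1 counts in control pools. It did not pass the filter on low counts and was not tested. Igfbp2 and Igfbp5 lie tail to tail on chromosome 1, with 5593 bases between their listed ends, so the least and the most heavily counted members are neighbours. Igfbp1 and Igfbp3 form the same arrangement on chromosome 11, 3544 bases apart. Igfbp1, whose liver gene is repressed by insulin, had 4 and 6 counts and a blank cell in STZ pools and 7, 3 and 1 counts in control pools, and was not tested either.

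**Figure D1:**
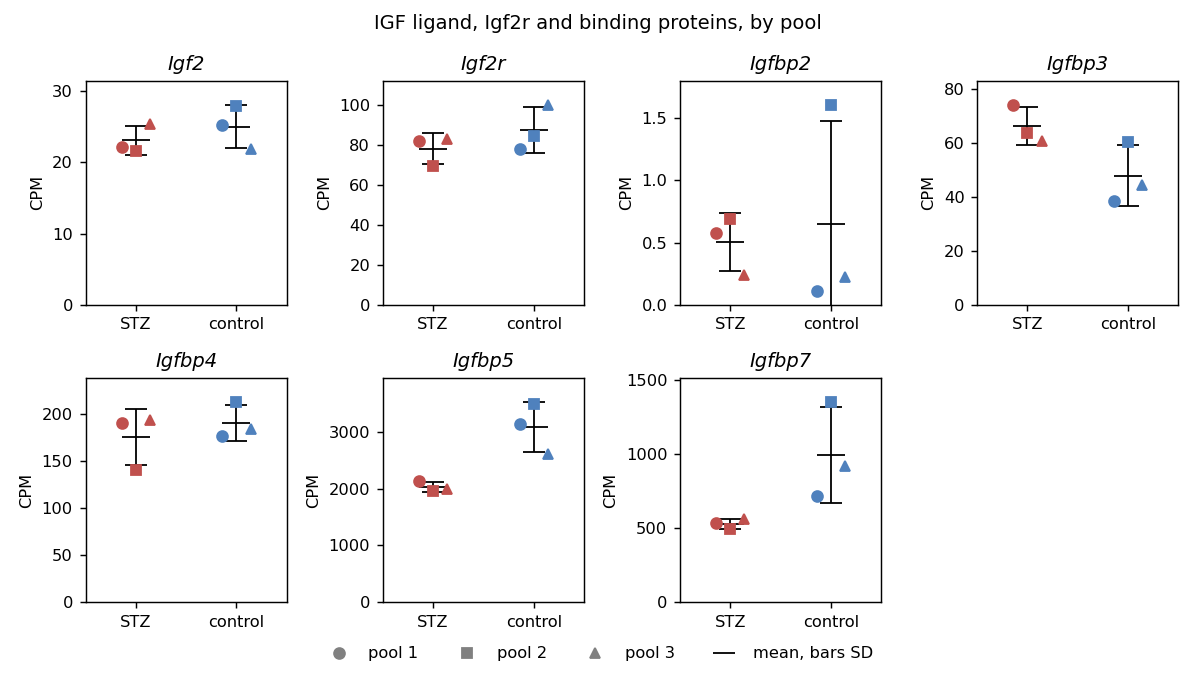
CPM of the 7 listed members in each pool, STZ left and control right, with 1 symbol per pool number, the mean as a short line and the SD as bars (cut at 0 for Igfbp2). STZ pools of Igfbp5 (1967 to 2137 CPM) and Igfbp7 (493 to 558 CPM) lie below all control pools, while those of Igf2, Igf2r, Igfbp2 and Igfbp4 overlap them.

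Levels of different genes were compared as CPM per kilobase of listed transcript length. On this scale the order was the same in both groups: Igfbp7, Igfbp5, Igfbp4, Igfbp3, Igf2r, Igf2 and Igfbp2. Igfbp7 stood at 471 ± 29.4 in STZ and 887 ± 290.0 in control (SD, n = 3 each), which ranked it 106th in STZ and 18th in control among 12911 genes. Igfbp5 stood at 347 ± 15.5 in STZ and 527 ± 75.8 in control, at ranks 163 and 69. Igfbp4 had 84.8 ± 14.4 in STZ and 92.4 ± 9.32 in control, at ranks 935 and 749. These 3 genes were thus far above the others in transcript per length.

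Igfbp3 stood at 27.1 ± 2.85 in STZ and 19.6 ± 4.63 in control (CPM per kilobase, SD, n = 3 each). Igf2r had 8.74 ± 0.856 in STZ and 9.78 ± 1.27 in control. Igf2 had 6.26 ± 0.552 in STZ and 6.78 ± 0.825 in control. Igfbp2, with 0.380 ± 0.176 in STZ and 0.487 ± 0.628 in control, was near the bottom of the tables. Neighbours in this order did not overlap between their pools within either group. The step from Igfbp7 to Igfbp5 was the narrowest of the upper ones, with 440.0 to 499 for Igfbp7 against 336 to 365 for Igfbp5 in STZ pools, and 639 to 1206 against 448 to 598 in control pools.

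The summed level of the 5 listed binding proteins was 962, 871 and 959 CPM per kilobase in STZ pools, against 1276, 1933 and 1372 in control pools. The STZ pools lay below the control pools. Igfbp7 and Igfbp5 made up most of this sum. Igfbp7 made up 50.6% ± 1.38 of it in STZ and 57.3% ± 6.46 in control, and Igfbp5 37.4% ± 1.58 in STZ and 35.2% ± 5.97 in control (SD, n = 3 each).

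Igfbp3 and Igfbp4 took a larger part of the smaller STZ sum. Igfbp3 was 3.15%, 2.99% and 2.59% of it in STZ pools, against 1.24%, 1.28% and 1.33% in control pools. These control shares were close to each other although the Igfbp3 level of control pool 2 stood apart. Igfbp4 was 9.08% ± 1.08 of the sum in STZ and 6.16% ± 0.733 in control, again without overlap. The level of Igfbp4 itself overlapped between the groups (84.8 ± 14.4 CPM per kilobase in STZ and 92.4 ± 9.32 in control), so its share rose with the smaller sum. Igfbp5 exceeded Igfbp3 by 12.1, 12.9 and 13.7 times in STZ pools, against 33.9, 24.2 and 24.6 times in control pools. These shares and ratios are descriptions and were not tested.

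**Figure D2:**
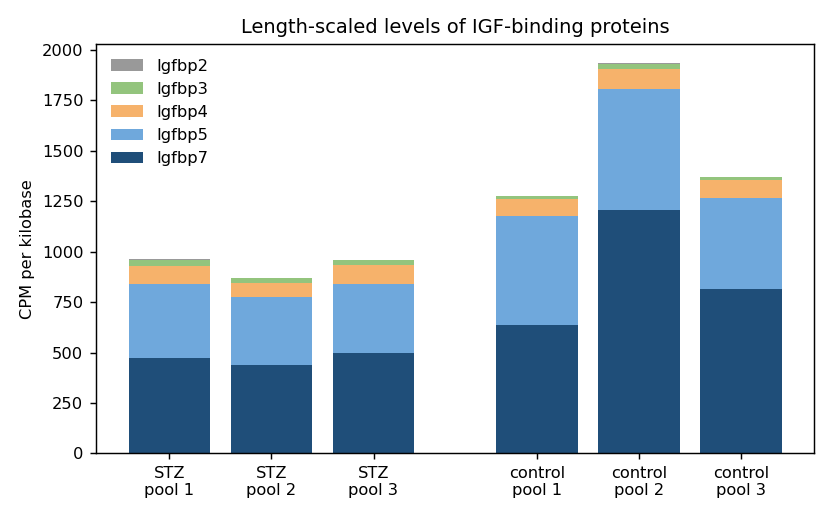
Stacked bars of CPM per kilobase for the 5 listed IGF-binding proteins in each pool, the 3 STZ pools left and the 3 control pools right. The sums run from 871 to 962 in STZ pools and from 1276 to 1933 in control pools, with Igfbp7 and Igfbp5 making up most of every bar.

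Of 14 mesangial and mural markers, the contractile and support cells of the glomerulus and its vessels, 4 were called lower and 0 higher. Over all tested genes, 4.32% were called lower and 5.47% higher. In 11 of the 14 markers every STZ pool lay below every control pool, as in 13.7% of all tested genes. The 14 markers summed to 1005 to 1661 CPM in STZ and 1933 to 2036 CPM in control, and no listed marker was at 0. The called markers were Rgs5, a regulator of G protein signalling in pericytes (-1.13 ± 0.13, SE, on the log2 scale), Cspg4 or NG2 (-1.28 ± 0.16), Notch3, a receptor of mural cells (51.1 to 84.5 CPM in STZ and 126 to 136 CPM in control), and Myh11, smooth muscle myosin (-0.79 ± 0.17). At an unadjusted p under 0.05, 8 were lower and 0 higher in edgeR, while DESeq2 called 5 lower and limma-voom 8, and both called 0 higher. Myh11 lost its call without STZ pool 1 (adjusted p = 0.0886), control pool 1 (0.0642) or control pool 2 (0.0704). With the mean of these markers as a covariate, Igfbp5 stood at -0.49 (adjusted p = 0.342) and Igfbp7 at -0.73 (adjusted p = 0.549), in a fit that called 225 genes in all. Because the marker sums do not overlap between the groups, the group and the markers cannot be told apart there. Of the 12 markers of glomerular endothelium, 7 were called higher and 0 lower by edgeR. In 9 of these 12 every STZ pool lay above every control pool, as in 15.4% of all tested genes. Endothelial genes of other vessels moved in both directions. Among 10 genes typical of arteries and arterioles, edgeR called 2 up and 4 down. Among 7 listed genes typical of peritubular capillaries and veins, edgeR called 3 up and 1 down. A link of these lists to the fall of Igfbp5 and Igfbp7 was not tested.

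None of the 12 podocyte markers was called by edgeR (9.78% of all tested genes were), DESeq2 or limma-voom. At an unadjusted p under 0.05 in edgeR, 2 of them were lower. With the mean of the 12 markers as a covariate in edgeR, Igfbp5 was still called lower (-0.45, adjusted p = 0.00164), whereas Igfbp7 was not (-0.77, adjusted p = 0.209). Tubular and parietal markers, of which 7 of 12 were listed, summed to 43.0 to 217 CPM in STZ and 136 to 446 CPM in control. The highest of these sums was in control pool 2, where Igfbp7 was also highest. Slc12a1, a salt transporter of the thick ascending limb, was the only one of them called, a call kept in 7 of 18 alternative fits and lost without any 1 STZ pool or control pool 3 (adjusted p of 0.0829 to 0.190; 3.72 ± 0.662 CPM in STZ and 33.2 ± 24.2 CPM in control, SD, n = 3 each). Podocyte, fibroblast and leukocyte marker sums were highest in control pool 2 as well. Control pool 3 had a lower tubular and parietal sum than control pool 1 (136 against 277 CPM) but more Igfbp7 (915 against 715 CPM). The part of tubular RNA in the Igfbp7 difference was not tested.

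**Figure D3:**
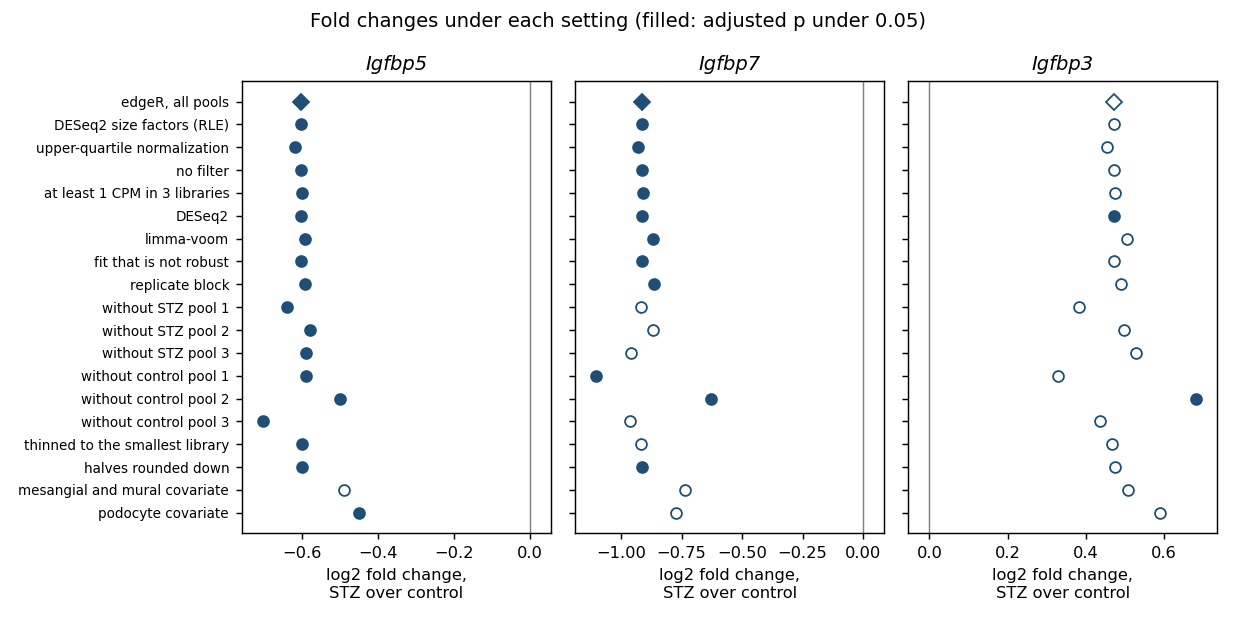
Log2 fold change of STZ over control for Igfbp5, Igfbp7 and Igfbp3 in the edgeR fit with all pools (diamond) and under each of 18 alternative settings (circles), filled where the adjusted p was under 0.05. Igfbp5 lies between -0.70 and -0.45 and loses its call only with the mesangial and mural covariate, Igfbp7 lies between -1.10 and -0.63 with 7 open circles, and Igfbp3 lies between 0.33 and 0.68 with 2 filled circles.

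The genes most like the 2 called members over the 6 libraries were found by the root mean square difference of centred log2 CPM, among 10134 genes with a mean log2 CPM of at least 3. Nearest to Igfbp5 were Disp1, which releases Hedgehog ligands (difference 0.051), Nab2, a co-repressor of Egr transcription factors (0.052), and Chrnb1, an acetylcholine receptor subunit (0.056). Nearest to Igfbp7 was Nipal2, of a family of magnesium transporters (0.065), with 14.8, 12.02 and 14.3 CPM in STZ pools, against 19.8, 34.9 and 24.1 CPM in control pools. Like Igfbp7, it was highest in control pool 2, which follows from how it was chosen. The next were Ces2g, a carboxylesterase (0.16), and Abcc9, a potassium channel subunit of mural cells (0.16).

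The wider IGF axis list held 25 genes for receptors, adaptors, carriers, proteases and neighbouring regulators, of which 24 were listed and 22 tested. Of these 22, 2 rose, 2 fell and 18 stayed short of the threshold, with a median log2 fold change of -0.09. Over all tested genes, 9.78% were called in either direction by edgeR, and the median was -0.01. Igf1r, which transmits the signal of both ligands and was chosen here after its values were seen, had 108, 111 and 114 CPM in STZ pools, against 119.8, 120.5 and 113 CPM in control pools (-0.09 ± 0.08, SE; 95% interval -0.26 to 0.09, adjusted p = 0.580 by edgeR). The groups lay close together and overlapped.

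Insr, the insulin receptor, rose. It had 234, 242 and 244 CPM in STZ pools, against 168, 149 and 139 CPM in control pools (0.66 ± 0.09, SE; adjusted p = 0.000633 by edgeR). Irs1, the adaptor that links both receptors to PI3 kinase, fell to 20.0, 18.7 and 19.7 CPM in STZ pools, against 35.8, 38.9 and 51.0 CPM in control pools (-1.09 ± 0.14, SE; adjusted p = 0.000329 by edgeR). Neither gene overlapped between the groups. Both calls were kept without any 1 library. With the mesangial and mural covariate neither passed (Insr 0.69, adjusted p = 0.0698, and Irs1 -1.09, adjusted p = 0.0635).

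Pappa2, a pappalysin that cuts IGFBP3 and IGFBP5, fell. It had 3.09, 3.89 and 5.18 CPM in STZ pools, against 12.7, 10.8 and 6.63 CPM in control pools, so the groups did not overlap (-1.33 ± 0.27, SE; adjusted p = 0.00636 by edgeR). Leaving out control pool 1 ended this call (-1.11, adjusted p = 0.0634), as did the mesangial and mural covariate (-0.94, adjusted p = 0.427). Its paralog Pappa was chosen after its values were seen. Pappa had 2.61, 1.38 and 1.13 CPM in STZ pools, against 3.85, 2.89 and 3.09 CPM in control pools. The groups did not overlap, but Pappa did not pass (-0.98 ± 0.35, SE, adjusted p = 0.103 by edgeR). Its counts were low, with 14 to 27 in STZ pools and 14 to 35 in the shallower control pools.

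H19, a non-coding RNA transcribed from the maternal copy of the imprinted locus that it shares with Igf2, showed the widest difference on the list. H19 lies 72622 bases from Igf2 on mm10 chromosome 7 in GENCODE M21, on the same strand. It had 146, 174 and 151 counts in STZ pools and 33, 12 and 8 counts in control pools, that is, 14.1, 15.0 and 12.2 CPM in STZ and 3.63, 1.93 and 1.77 CPM in control. The groups did not overlap, and the log2 fold change was 2.40 ± 0.26 (SE; 95% interval 1.85 to 2.96, adjusted p = 7.3e-05 by edgeR). It was called in all 18 alternative fits, with log2 fold changes of 2.18 to 2.88. Igf2 itself, at -0.12, had an interval with no overlap with that of H19.

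**Figure D4:**
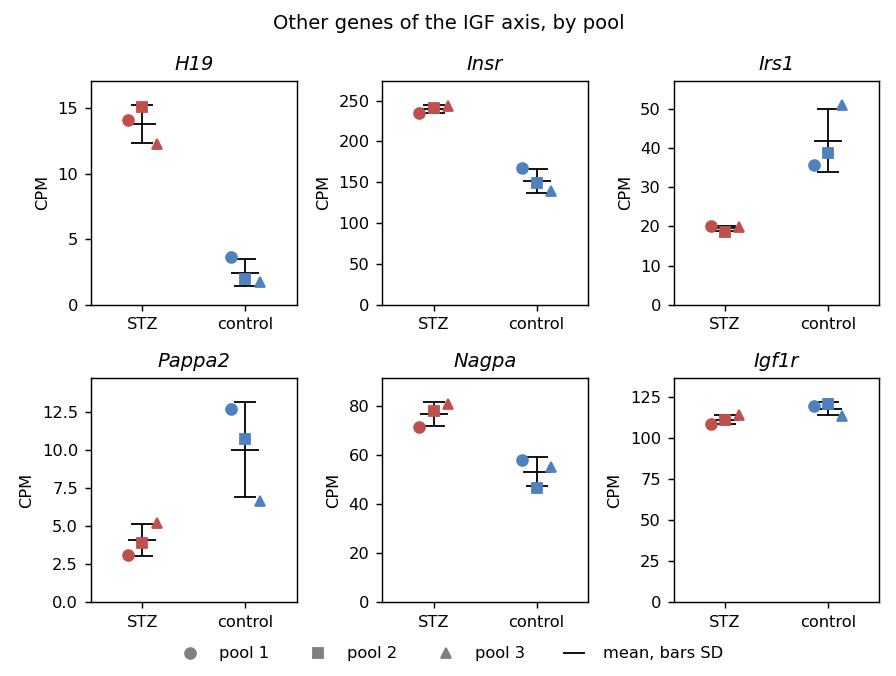
CPM of H19, Insr, Irs1, Pappa2, Nagpa and Igf1r in each pool, STZ left and control right, with 1 symbol per pool number, the mean as a short line and the SD as bars. H19 (12.2 to 15.0 CPM in STZ, 1.77 to 3.63 CPM in control), Insr and Nagpa lie higher in every STZ pool, Irs1 and Pappa2 lower, and Igf1r overlaps.

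Igf2r works in the mannose 6-phosphate route, which tags lysosomal enzymes in the Golgi and sorts them. Of 18 listed and tested genes of this route, 1 rose, 0 fell and 17 stayed short of the threshold, with a median log2 fold change of 0.02. Over all tested genes, 9.78% were called in either direction by edgeR. The called gene of the route was Nagpa, the enzyme that uncovers the mannose 6-phosphate tag. Nagpa had 71.4, 77.7 and 80.8 CPM in STZ pools, against 57.8, 46.6 and 55.0 CPM in control pools, without overlap (0.53 ± 0.10, SE; adjusted p = 0.00586 by edgeR). With the mesangial and mural covariate its log2 fold change was again 0.53, but the call was lost (adjusted p = 0.218). At an unadjusted p under 0.05, 3 genes of the route were higher and 1 lower in edgeR, and DESeq2 and limma-voom called 1 higher and 0 lower. M6pr, the second mannose 6-phosphate receptor, chosen after its values were seen, had 168 ± 3.97 CPM in STZ and 152 ± 13.4 CPM in control (SD, n = 3 each) and did not pass (0.15 ± 0.09, SE; adjusted p = 0.336 by edgeR).

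**Figure D5:**
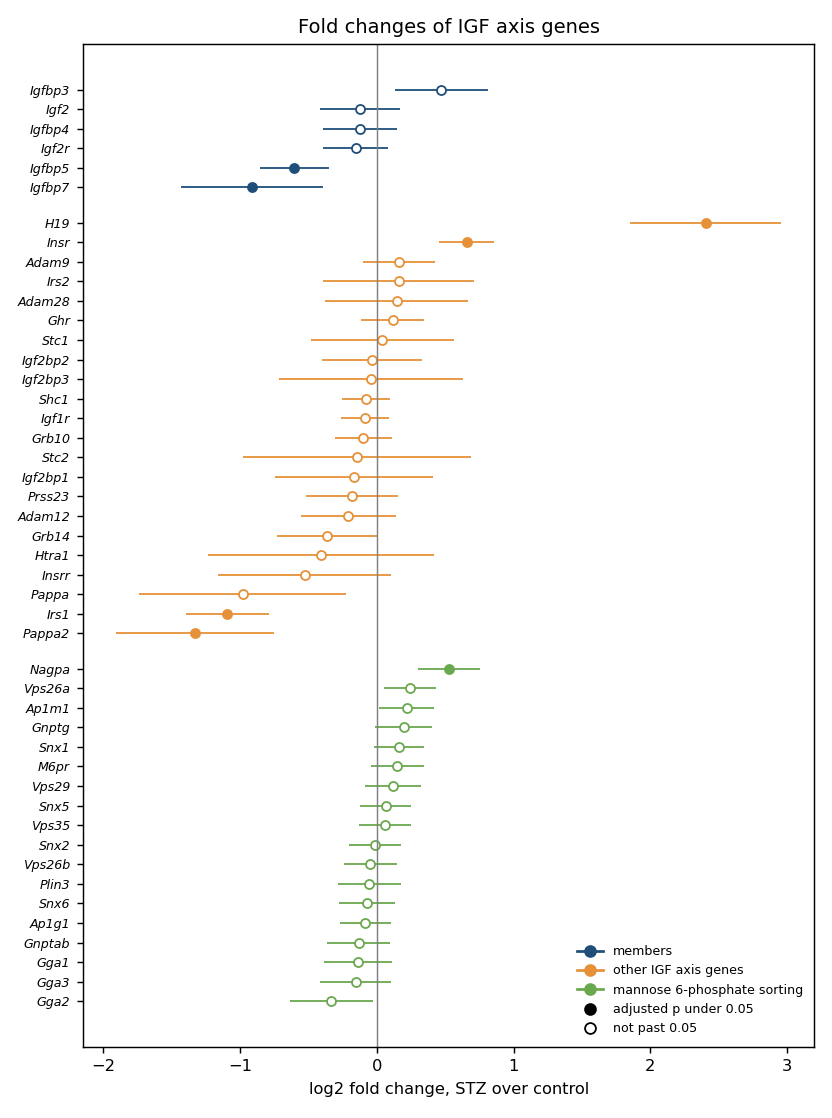
Log2 fold change of STZ over control with its 95% interval for the 6 tested members, 22 other IGF axis genes and 18 mannose 6-phosphate sorting genes, filled where the adjusted p was under 0.05. Filled points to the left of 0 are Igfbp5, Igfbp7, Irs1 and Pappa2, and those to the right are H19, Insr and Nagpa.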

How the data were processed

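Sorted glomerular endothelial cells were analysed, with 1 deposited table for each pool of 4 mice. The tables hold 1 value per gene, a multiple of 0.5, which the authors deposited without stated normalization and which was treated as an expected count. The submitters' processing notes name mm10 as build and limma as a tool. Aligner, counting tool and strand setting: not given in the sources used here. The 34 blank cells were read as 0, and 1 was added to listed starts.

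Values were rounded to whole counts and tested in R 4.3.3 by edgeR 4.0.16 (filterByExpr, TMM normalization, robust quasi-likelihood F test, two-sided, Benjamini-Hochberg over 12786 genes, threshold 0.05). The fit was tested on simulated data. Alternatives used limma 3.58.1 (voom), DESeq2 1.42.0 and other settings. The labels do not say whether equal replicate numbers link pools. Pool numbers here follow the sample titles, and the deposited column headers number the control pools differently. Deviations of same-numbered pools from their group mean correlated at 0.12, -0.13 and -0.16, and those of other pairs at -0.24 to 0.29. With 3 pools per group, these values cannot settle whether pools were paired.

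Members and lists were chosen with earlier results of these data known. Named genes were the members, called genes of each list and the 3 genes most like each called member. Others are said to be chosen after their values were seen. Promoters came from RefSeq (GRCm38.p6) and overlaps from GENCODE M21. All 3 symbols sought there matched.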

Additional observations from a re-analysis of the deposited data

How the results depend on the processing

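Across 25 named genes and 18 alternatives, 396 of 450 refitted values kept direction and side of the threshold, 46 lost a call, 3 gained one and 5 changed sign. The sign changes were in members without a call: Igf2 stood at 0.10 with the mesangial and mural covariate and 0.025 with the podocyte covariate, Igf2r at 0.056 and Igfbp4 at 0.35 with the mesangial and mural covariate, and Igfbp4 at 0.012 without STZ pool 2, its lowest value with 1 library left out being -0.20. The cause was not tested.

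The number of members called was 2 with all pools, 1 to 3 with 1 library left out, 1 after thinning, 0 with the mesangial and mural covariate and 1 with the podocyte covariate. Over all genes, 662 (without STZ pool 1) to 1291 (without control pool 3) were called with 1 library left out, 426 to 695 of them higher and 236 to 596 lower. Without control pool 1 there were 720, and without STZ pool 3 the lower ones were 355. The mesangial and mural covariate left 225 calls (142 higher, 83 lower) and the podocyte covariate gave 1933 (1078 higher, 855 lower). The replicate block, in which the number alone links pools, gave 1001 calls and kept both members (Igfbp5 -0.59, Igfbp7 -0.87), and 2 members were called. Igfbp2 and Igfbp1 had counts too low to test in these libraries.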
